A study of Mus musculus with 2 samples.

Results

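*Bnip3l*, *Tmcc2*, *Xpo7*, *Slfn14*, *Fam46c*, *Tcp11l2*, *Fam220a*, *Plek2*, *Hemgn* and *Gch1* are genes of the last steps of red cell formation. These 10 genes were chosen by their measured levels in these same cells, because they rose with the hemoglobin content of erythroid cells, so that their rise is described here and not tested. All 10 were listed in both libraries, among 7181 genes in WT, 6735 in Cko and 6001 in both. The values below describe the order in which they came on along the hemoglobin share of a cell, and where each reached its highest level. They also describe how WT and Cko cells in the same range of hemoglobin share differed.

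The study asked how the bone marrow changes in mice that lose site-1 protease (S1P, gene *Mbtps1*) in cells of the osterix (Osx) lineage. Bone marrow cells (BMCs) were taken from the forelimbs and hindlimbs of 1 WT and 1 Cko mouse of the C57BL6/J strain at postnatal day 21, with collagenase digestion of the crushed bones and treatment with a buffer that lyses red blood cells, and were analysed by Sc-RNA-Seq on the 10x Genomics platform with 3′ chemistry. The Cko mouse (labelled S1P Cko, in full S1P f/f;Osx-Cre) was homozygous for a floxed exon 2 of *Mbtps1* and carried the Osx1-GFP::Cre transgene. The mouse labelled WT had no S1P ablation, and for its spine images the study describes WT mice as S1P f/f. The Osx promoter drives the Cre in bone-forming cells, the study considers the transgene likely active in hematopoietic cells too, and no mouse with the transgene alone was among the libraries. *Mbtps1* was at 31.9 CPM in WT and 31.2 CPM in Cko, which checks nothing, because 3′ reads lie outside the deleted exon. With 1 library of 1 mouse per genotype no test between genotypes was possible. Every interval below covers counting error only, at 95%, and a difference between the libraries cannot be told apart from a difference between any 2 mice or library preparations.

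An erythroblast fills itself with hemoglobin while it stops dividing, condenses its nucleus, expels it and then clears its mitochondria and ribosomes as a reticulocyte. Transcription closes down along the way, so that a small set of messages, hemoglobin above all, makes up more and more of the RNA of the cell. The hemoglobin share of the RNA can therefore serve as a ruler of maturation, although it also rises when other RNA is lost.

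The 10 genes act at different points of this program. *Hemgn* encodes hemogen, a nuclear protein of erythroid cells, and *Plek2* encodes pleckstrin 2, which binds membrane phosphoinositides and takes part in organising actin in erythroblasts. *Gch1* encodes GTP cyclohydrolase 1, the entry enzyme of tetrahydrobiopterin synthesis. *Bnip3l* (also called Nix) encodes the receptor on the outer mitochondrial membrane through which reticulocytes remove mitochondria, and *Xpo7* encodes exportin 7, a nuclear transport receptor. *Slfn14* encodes a ribosome-associated endoribonuclease of the Schlafen family, *Fam46c* (now *Tent5c*) a noncanonical poly(A) polymerase, *Tmcc2* a membrane protein with coiled coils, and *Fam220a* a protein that binds STAT3. *Tcp11l2* is named for its likeness to T-complex protein 11.

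In the GENCODE annotation of GRCm38 the genes lie on 8 chromosomes. *Tmcc2* is on the minus strand of chromosome 1 from 132356315 to 132391281, *Fam46c* on the minus strand of chromosome 3 from 100451628 to 100489324, and *Hemgn* on the minus strand of chromosome 4 from 46393989 to 46413506. *Tcp11l2* is on the plus strand of chromosome 10 from 84576626 to 84614359, *Slfn14* on the minus strand of chromosome 11 from 83275110 to 83286726, and *Plek2* on the minus strand of chromosome 12 from 78888691 to 78906964. Chromosome 14 holds 3 of them, all on the minus strand: *Gch1* from 47153895 to 47189413, *Bnip3l* from 66985239 to 67008877 and *Xpo7* from 70654246 to 70766628. *Fam220a*, on the plus strand of chromosome 5, is the name of 2 gene models there, so that its counts may be divided between them or shared.

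The WT library held 6287 barcodes and 56382459 UMIs, and the Cko library 3670 barcodes and 34447224 UMIs, with a median of 6977 and 7440 UMIs per barcode, and 28 barcodes occurred in both. Of the 25 erythroid marker genes, 24 were listed in both libraries. Cells with at least 200 genes, at least 5 UMIs of these markers and more of them than of 18 leukocyte genes were taken as erythroid. This gave 3631 of 6271 cells in WT (57.9%) and 593 of 3662 in Cko (16.2%). Among them were 98 called doublets in WT and 13 in Cko, and 263 and 48 cells that a joint clustering placed with other cell types. The hemoglobin share is the percent of a cell's UMIs that came from *Hba-a1*, *Hba-a2*, *Hbb-bs* and *Hbb-bt*. It reached 93.7% in WT and 93.5% in Cko, and 1669 WT and 302 Cko erythroid cells were at 50% or more.

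A level is given as UMIs of a gene per 1000000 non-hemoglobin UMIs, summed over the erythroid cells of a range of hemoglobin share. Non-hemoglobin UMIs fell from a mean of 18666 per WT cell under 0.3% hemoglobin to 641 at 85% and over, and from 21186 to 812 in Cko. A level can therefore rise because other RNA is lost, and the number of UMIs per cell is given beside it.

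In WT, the 10 genes came on in 2 groups. By level, *Hemgn*, *Plek2* and *Gch1* came on between 30 and 50% hemoglobin, and the other 7 between 69 and 72%. The onset is the hemoglobin share at which the level first reached 50% of its highest value over 8 ranges divided at 0.3, 1, 3, 10, 30, 50 and 70%, with bounds from the counting limits. The first was *Hemgn*, at 41.5% (bounds 39.8 to 42.6), then *Plek2* at 44.4% (40.9 to 48.4) and *Gch1* at 49.8% (48.0 to 51.7). *Hemgn* and *Plek2* did not differ beyond their bounds. The 7 late genes were all highest in the last of the 8 ranges, and their order depended on how that range was divided. *Bnip3l* reached its onset at 69.0% (68.3 to 69.7), *Fam46c* at 69.5% (68.3 to 70.8), *Fam220a* at 69.8% (69.0 to 70.7) and *Slfn14* at 70.0% (68.5 to 71.6). *Tmcc2* followed at 70.7% (70.1 to 71.4), *Xpo7* at 71.1% (70.2 to 72.0) and *Tcp11l2* at 71.1% (69.9 to 72.4). Neighbours among these 7 overlapped in their bounds, while those of *Bnip3l* lay before those of *Tmcc2*, *Xpo7* and *Tcp11l2*. With 12 ranges, divided more finely above 50% at 60, 75, 80 and 85%, this separation was lost. The late genes then ran in WT from *Slfn14* at 75.6% (73.8 to 78.0) and *Bnip3l* at 76.0% (74.8 to 77.3) to *Fam46c* at 79.0% (76.5 to 81.7) and *Fam220a*, the last, at 82.5% (81.0 to 83.4). *Hemgn*, *Plek2* and *Gch1* were the first 3 in both divisions.

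**Figure D1:**
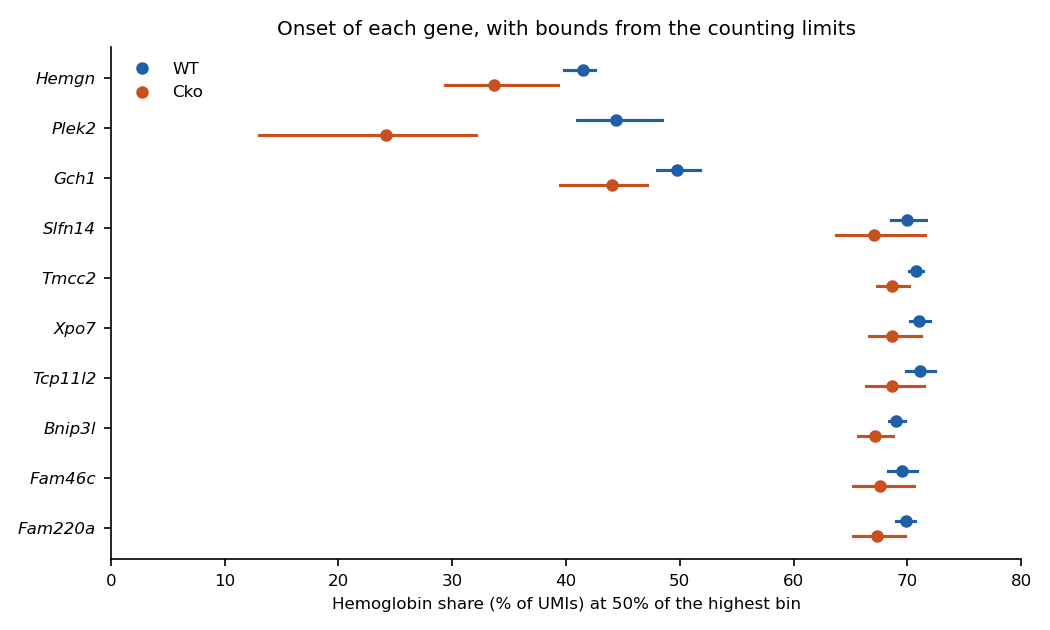
Onset of each gene as the hemoglobin share, in percent of UMIs, at which its level first reached 50% of its highest of 8 ranges, in WT (blue) and Cko (orange) erythroid cells, with lines for the bounds given by the counting limits. *Hemgn*, *Plek2* and *Gch1* lie at 24.1 to 49.8% and the other 7 genes at 67.1 to 71.1%.

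The promoters of the earliest and the latest genes in the order from 8 ranges are shown to set its ends side by side. RefSeq (GRCm38.p6) had start sites for 8 of the 10 genes; *Bnip3l* and *Xpo7* had no entry. Each sequence is the 250 bases before the start site, 5′ to 3′ on the strand of the gene. *Hemgn* is at chr4:46404184-46404433 and *Plek2* at chr12:78906939-78907188, both on the minus strand, and *Tcp11l2* is at chr10:84576697-84576946 on the plus strand. The *Hemgn* and *Tcp11l2* windows lie inside the GENCODE spans given above, and the *Plek2* window overlaps its span, because the start sites are those of RefSeq. Capitals mark the GATA letters (GATAA or GATAG, with A or T before them) and the KLF-type letters CCNCNCCC on either strand.
Hemgn: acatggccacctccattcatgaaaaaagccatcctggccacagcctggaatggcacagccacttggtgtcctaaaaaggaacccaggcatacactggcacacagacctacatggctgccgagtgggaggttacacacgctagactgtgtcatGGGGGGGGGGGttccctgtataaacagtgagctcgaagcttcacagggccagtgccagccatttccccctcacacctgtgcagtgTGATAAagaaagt
Plek2: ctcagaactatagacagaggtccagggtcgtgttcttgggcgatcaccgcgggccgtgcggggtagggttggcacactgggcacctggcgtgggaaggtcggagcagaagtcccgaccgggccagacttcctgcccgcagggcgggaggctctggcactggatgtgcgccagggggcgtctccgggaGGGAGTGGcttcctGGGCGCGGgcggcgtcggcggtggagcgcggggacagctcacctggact
Tcp11l2: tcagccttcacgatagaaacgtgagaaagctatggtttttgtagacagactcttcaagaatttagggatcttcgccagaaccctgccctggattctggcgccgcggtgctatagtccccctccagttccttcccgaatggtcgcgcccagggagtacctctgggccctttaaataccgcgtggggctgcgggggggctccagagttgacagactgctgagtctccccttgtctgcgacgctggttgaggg

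The *Hemgn* window held 1 GATA match next to its start site and 4 overlapping KLF-type matches within 1 run of G. The *Plek2* window held 2 KLF-type matches and the *Tcp11l2* window had neither set of letters. Of the 10 promoters of the 8 genes with an entry, 4 held a GATA match and 8 a KLF-type match, while 26.5% of all 32851 promoters of this length held the first and 45.9% the second.

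The first 3 genes were highest below 75% hemoglobin, and the other 7 at 80% and over. Over the 12 ranges the WT cells gave *Hemgn* a level of 986 at 10 to 30% hemoglobin, 1998 at 30 to 50%, 3269 at 50 to 60% and a highest level of 4673 (4551 to 4798) at 60 to 70%. It then fell to 4231 at 70 to 75%, 2551 at 75 to 80%, 1136 at 80 to 85% and 350 (251 to 474) at 85% and over, which is 7.48% of its highest level. *Plek2* ran a like course at a lower level. It rose from 41.4 at 10 to 30% to 269 (240 to 300) at 60 to 70%, and fell to 175 at 70 to 75% and 41.1 at 75 to 80%. No UMI of *Plek2* was seen in the 183 WT cells at 85% and over, where a count of 0 allows a level of up to 31.5. *Gch1* peaked next, at 2659 (2508 to 2817) in cells of 70 to 75%, and was at 699 (556 to 868) at 85% and over.

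*Tmcc2*, *Xpo7*, *Slfn14* and *Tcp11l2* were highest in WT cells of 80 to 85% hemoglobin. *Tmcc2* went from 380 at 60 to 70% to 1011 at 70 to 75%, 4496 at 75 to 80% and 7750 (7379 to 8135) at 80 to 85%. *Xpo7* went from 116 to 434, 1862 and 3745 (3489 to 4015) over the same ranges. These increases were the steepest among the 10 genes together with that of *Tcp11l2*, from 54.8 to 145, 1003 and 1794 (1618 to 1984). *Slfn14* went from 143 to 375, 849 and 1359 (1206 to 1525). All 4 were lower again at 85% and over, where *Tmcc2* was at 66.9% of its highest level, *Xpo7* at 59.7%, *Tcp11l2* at 77.5% and *Slfn14* at 44.6%.

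*Bnip3l*, *Fam46c* and *Fam220a* rose through to the last range. *Bnip3l*, the mitophagy receptor, was present at every stage, at 142 in WT cells under 0.3% hemoglobin, 1118 at 60 to 70% and 7291 (6811 to 7797) at 85% and over. *Fam46c* went from 5.73 in the first range to 290 at 60 to 70% and 2592 (2309 to 2901) in the last. *Fam220a* doubled over the last step alone, from 3641 at 80 to 85% to 7283 (6803 to 7788). In the most hemoglobin-rich WT cells the intervals of *Bnip3l* and *Fam220a* overlapped, and *Plek2* was not detected.

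**Figure D2:**
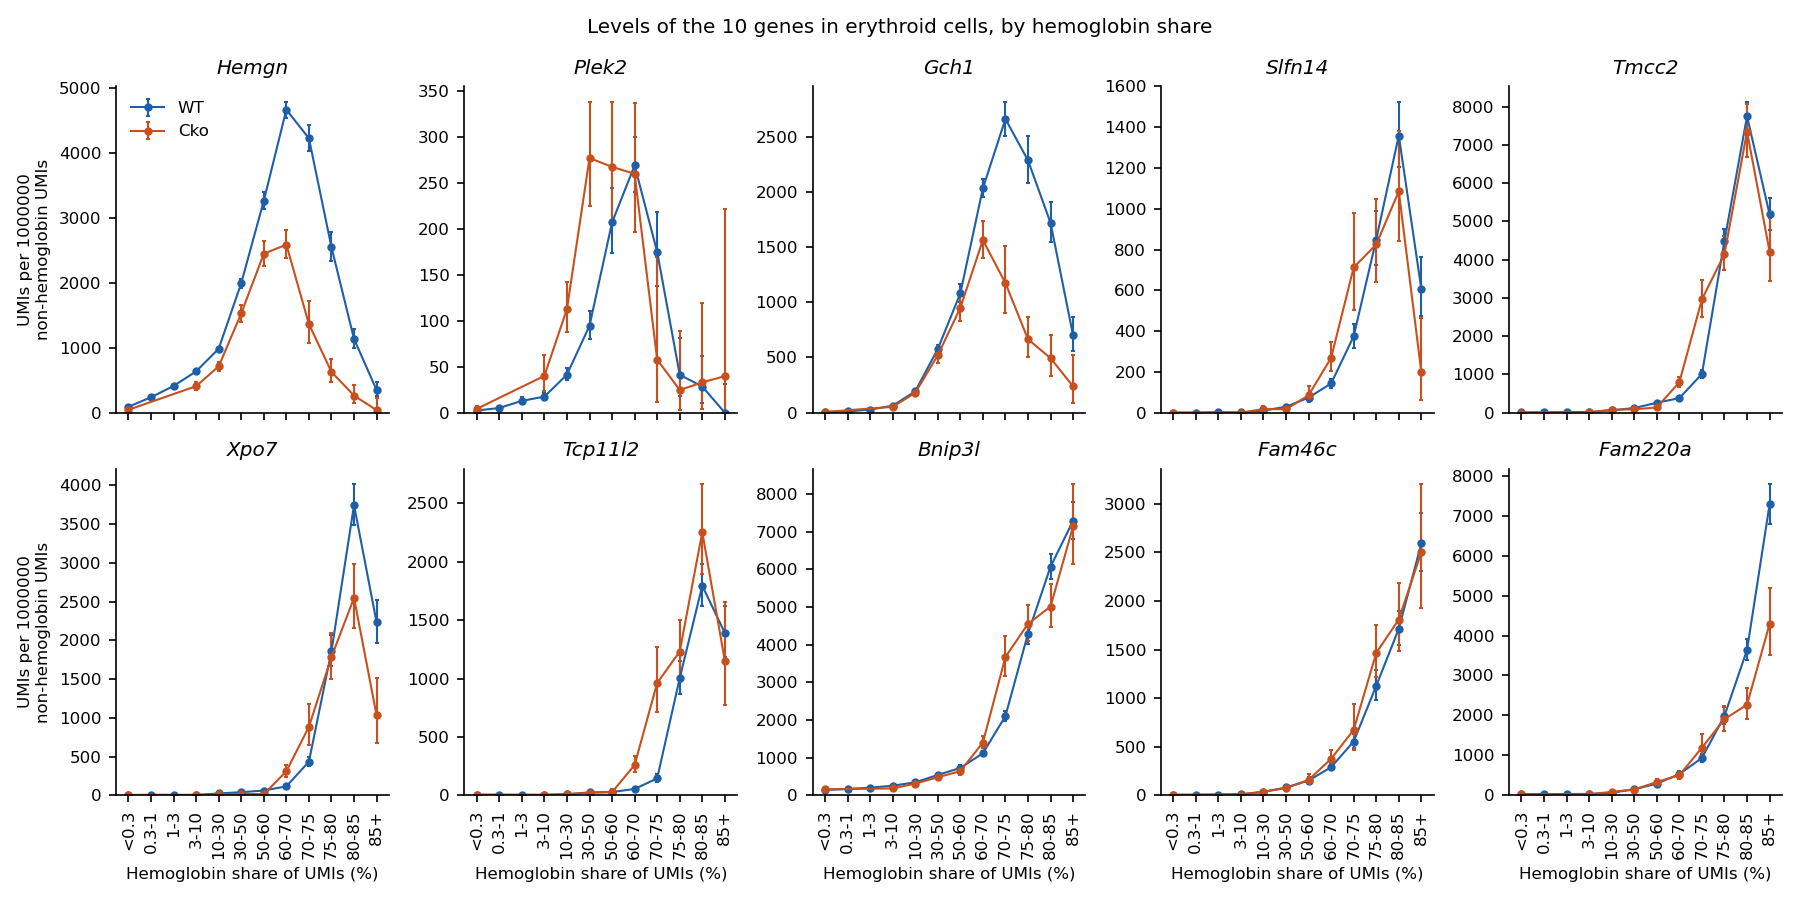
Level of each gene (UMIs per 1000000 non-hemoglobin UMIs, 1 panel per gene, each with its own axis from 0) over 12 ranges of hemoglobin share in WT (blue) and Cko (orange) erythroid cells, with exact Poisson intervals. Ranges under 20 cells (0.3 to 3% in Cko) are left out. *Hemgn*, *Plek2* and *Gch1* rise and fall, *Slfn14*, *Tmcc2*, *Xpo7* and *Tcp11l2* peak at 80 to 85%, and *Bnip3l*, *Fam46c* and *Fam220a* are highest at 85% and over.

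From cells under 1% hemoglobin to those at 10% and over, the level of all 10 genes was over 2-fold higher in both libraries, while 17.8% of 5962 genes were in WT and 21.7% of 4308 in Cko. These contrasts chose the genes, and nothing is read from the count. The median over the 10 genes was 35.5-fold in WT and 47.4-fold in Cko, beside 0.812 and 0.880 over all genes. The smallest rise was that of *Bnip3l*, from 154 to 947 in WT and from 160 to 1122 in Cko. The largest in WT was that of *Slfn14*, of which 4 UMIs were counted in 570 WT cells under 1% and none in 126 Cko cells. Its level rose 294-fold (114 to 1081) in WT and at least 146-fold in Cko, taking the 0 as up to 3 counts.

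Counted as UMIs per cell, the courses were flatter at the start. *Bnip3l* stayed between 2.01 and 3.21 UMIs per WT cell up to 70%. A WT cell held 2.64 UMIs of it under 0.3% hemoglobin, 3.21 at 3 to 10%, 2.31 at 30 to 50% and 2.25 at 60 to 70%, and then 5.25 at 75 to 80%, 5.28 at 80 to 85% and 4.67 at 85% and over. Its level rose from 142 to 1118 over the ranges up to 70%. *Hemgn* went from 1.68 UMIs per WT cell under 0.3% hemoglobin to 3.82 at 0.3 to 1% and 6.41 at 1 to 3%. It then stood near 8 to 9 from 3 to 70% (7.95 at 3 to 10% and 9.39 at 60 to 70%) before it fell to 0.224. Per cell *Hemgn* was thus past 50% of its highest value at 1 to 3%, while its onset by level was 41.5%. The other late genes gained UMIs per cell. *Tmcc2* went from 0.763 per WT cell at 60 to 70% to 6.74 at 80 to 85%, *Xpo7* from 0.234 to 3.26, *Tcp11l2* from 0.110 to 1.56 and *Fam220a* from 1.07 to 3.16, and *Fam220a* then to 4.67 at 85% and over.

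**Figure D3:**
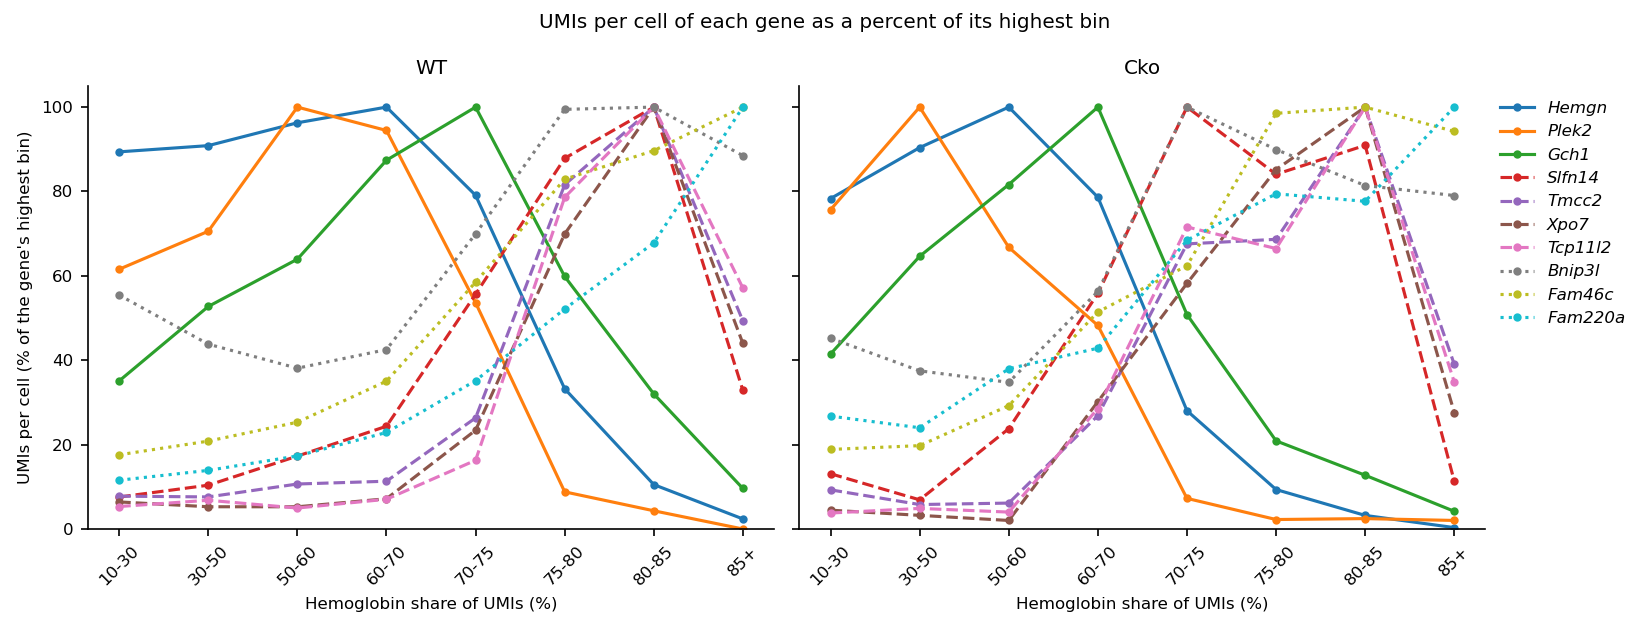
UMIs per cell of each gene as a percent of its highest range, over ranges of hemoglobin share from 10% in WT (left) and Cko (right). Solid lines (*Hemgn*, *Plek2*, *Gch1*) fall where dashed (*Slfn14*, *Tmcc2*, *Xpo7*, *Tcp11l2*) and dotted lines (*Bnip3l*, *Fam46c*, *Fam220a*) rise, and they cross at 70 to 80% in WT and at 60 to 75% in Cko.

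Seen cell by cell at an equal depth, more of the genes were found together in cells of high hemoglobin share. Each cell was thinned to 400 non-hemoglobin UMIs, which left out 7 of 183 WT cells at 85% and over and no other erythroid cell. A WT cell then held UMIs of a mean of 0.147 of the 10 genes under 0.3% hemoglobin, 2.28 at 60 to 70%, 4.44 at 75 to 80%, 5.35 at 80 to 85% and 4.26 at 85% and over. In B cell-like cells under 1% hemoglobin, which should lack most of these messages, the mean was 0.0799. WT cells under 0.3% had a median of 18529 UMIs before thinning, so a low mean does not show that the messages were absent. Without thinning, *Bnip3l* was found in 91.3% of them, *Hemgn* in 72.2% and *Fam220a* in 45.8%, and each other gene in at most 11.7%. *Tmcc2* was found in 11.8% of thinned WT cells at 60 to 70% (9.35 to 14.7), in 73.0% at 75 to 80% (65.3 to 79.7) and in 87.7% at 80 to 85% (82.8 to 91.5), against 0.242% of the B cell-like cells. *Hemgn* moved the other way, from 83.2% at 60 to 70% to 12.5% at 85% and over. At 75 to 80% it was found in 50.9% of thinned WT cells (42.9 to 58.9), and in 78.0% without thinning.

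In Cko the genes came on in the same 2 groups and each came on at a lower hemoglobin share. *Plek2* was first, at 24.1% (13.04 to 32.1), *Hemgn* second, at 33.7% (29.4 to 39.3), and *Gch1* last of the 3, at 44.0% (39.5 to 47.2). The 7 late genes lay between 67.1% for *Slfn14* (63.7 to 71.5) and 68.7% for *Xpo7* (66.6 to 71.2), with bounds that all overlapped. All 10 onsets were earlier in Cko than in WT, by 1.88 to 20.3 percentage points with a median of 2.49. The bounds of the 2 libraries were apart for only 4 genes (*Tmcc2*, *Plek2*, *Hemgn* and *Gch1*). Onsets are interpolated between the median shares of the ranges, which the bounds take as fixed. At 50 to 70% this median was 63.9% in WT and 60.5% in Cko. The part of this gap in the onsets was not tested. With 12 ranges all 10 were again earlier in Cko, and the bounds were apart for *Plek2* and *Hemgn* alone. The order of onset was alike in the libraries (Spearman's rho 0.867 over the 10 genes, which share their cells and were chosen together).

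By level, the genes of Cko were highest in nearly the same places as those of WT. *Hemgn* was highest at 60 to 70%, at 2591 (2381 to 2815), and fell to 1366 at 70 to 75%, 628 at 75 to 80% and 39.7 at 85% and over, where 1 UMI was counted in 31 cells. *Plek2* stood at 277 (224 to 338) at 30 to 50% and at 260 at 60 to 70%, and only 8 of its UMIs were counted in all 164 Cko cells at 70% and over. *Tmcc2*, *Xpo7*, *Slfn14* and *Tcp11l2* were highest at 80 to 85%, as in WT, and *Bnip3l*, *Fam46c* and *Fam220a* at 85% and over. At 85% and over *Slfn14* was at 18.3% of its highest level in Cko, *Xpo7* at 40.5%, *Tcp11l2* at 51.1% and *Tmcc2* at 57.3%, beside 15.3% for *Gch1*. Where the level of each gene was highest thus differed between the libraries for *Plek2* and *Gch1* only, and for *Plek2* the Cko intervals at 30 to 70% overlapped. In UMIs per cell the highest range differed for *Bnip3l*, *Slfn14*, *Fam46c* and *Hemgn* as well. Per cell, *Bnip3l* and *Slfn14* were highest at 80 to 85% in WT and at 70 to 75% in Cko.

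Within a range of hemoglobin share the libraries could be compared, although the cells of a range were not fully matched. The median share under 0.3% was 0.238% in WT and 0.0586% in Cko, and at 50 to 70% it was 63.9% and 60.5%. Cells outside the erythroid gate had a median of 0.299% in WT and 0.0819% in Cko, so the lowest range lies near that background. Over the 6 of the 8 ranges with at least 20 cells in both, *Tcp11l2* was higher in Cko than in WT, with a Mantel-Haenszel ratio of 1.79 (1.60 to 2.01), and so was *Plek2*, with 1.59 (1.40 to 1.80). *Hemgn* was lower, with 0.596 (0.572 to 0.620), and so was *Gch1*, with 0.653 (0.612 to 0.697). These 4 of the 10 genes were past 1.5-fold, 2 in each direction, where 5.86% of 5190 genes were that much higher and 4.76% that much lower. The other 6 ratios lay between 0.875 for *Fam220a* and 1.24 for *Tmcc2*. The median over all genes was 0.937. For *Hemgn*, the nuclear protein of the earlier phase, the level was lower in Cko in each range compared. Counted per cell, it was not lower in 2 of the finer ranges. A Cko cell held 8.80 UMIs of it and a WT cell 8.53 at 30 to 50%, and 9.74 and 9.04 at 50 to 60%. In the other ranges compared it was lower per Cko cell too. For *Plek2* and *Tcp11l2* the pooled ratio hid courses that differed along the range.

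Below 50% hemoglobin, only *Plek2* and *Xpo7* were past 1.5-fold, where 5.34% of 5115 genes were higher and 4.01% lower. *Plek2* was at 41.4 in WT and 113 in Cko cells of 10 to 30%, and at 94.5 and 277 in cells of 30 to 50%, with a ratio of 2.70 (2.27 to 3.21) below 50%. *Xpo7* had 198 UMIs in WT and 27 in Cko, with a ratio of 0.657 (0.435 to 0.991). *Hemgn* was at 0.703 (0.663 to 0.745). The other 7 genes had ratios of 0.839 to 1.27, with intervals that all held 1.

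At 60 to 75% hemoglobin most of the late genes were higher in Cko. In cells of 70 to 75% the level of *Tmcc2* was 1011 in WT and 2963 in Cko, that of *Tcp11l2* 145 and 962, that of *Xpo7* 434 and 885, and that of *Slfn14* 375 and 712. Over 60 to 75% the ratio was 5.51 (4.26 to 7.12) for *Tcp11l2*, 2.43 (2.14 to 2.76) for *Tmcc2*, 2.36 (1.90 to 2.93) for *Xpo7* and 1.89 (1.501 to 2.37) for *Slfn14*. These are the 4 genes whose level peaked at 80 to 85% in both libraries. *Bnip3l* followed with 1.41 (1.28 to 1.56) and *Fam46c* with 1.27 (1.04 to 1.55), while *Fam220a* was at 1.05 (0.894 to 1.24). In the same cells *Hemgn* was lower in Cko, at 0.511 (0.471 to 0.555), as was *Gch1*, at 0.687 (0.619 to 0.763). Of 2115 genes, 15.1% were past 1.5-fold higher and 23.1% past 1.5-fold lower in these ranges, so that 4 higher and 1 lower of 10 stand beside a wide background. These ranges were chosen after the levels had been seen.

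At 75% and over, *Tcp11l2* alone of the late genes still had an interval above 1. It was at 1.17 (1.02 to 1.35), *Fam46c* at 1.11 (0.971 to 1.27), *Bnip3l* at 0.944 (0.875 to 1.02) and *Tmcc2* at 0.919 (0.853 to 0.991). *Fam220a* was lower, at 0.699 (0.627 to 0.779), and so were *Xpo7*, at 0.740 (0.655 to 0.836), and *Slfn14*, at 0.819 (0.677 to 0.990). *Hemgn* and *Gch1* were further from 1 here than below 50% or at 60 to 75%. *Hemgn* was at 0.238 (0.185 to 0.305) and *Gch1* at 0.293 (0.236 to 0.364), both past 1.5-fold lower, as were 21.5% of 864 genes, and 17.1% were that much higher. *Plek2*, with 14 UMIs in WT and 5 in Cko, was too rare to compare.

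**Figure D4:**
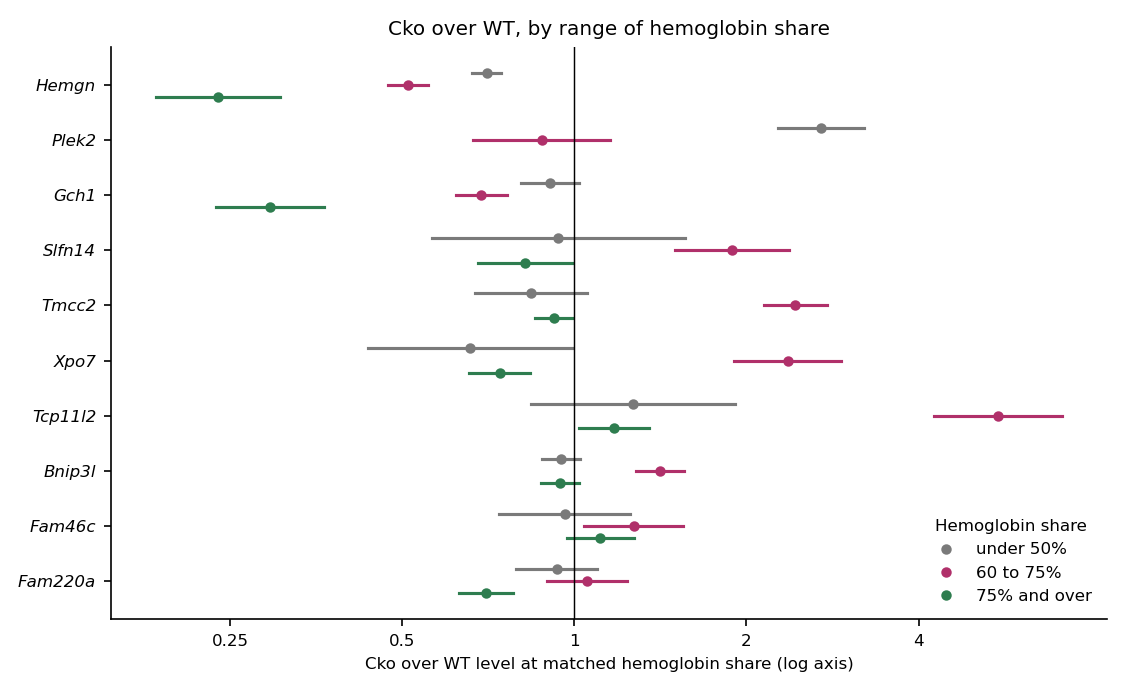
Ratio of Cko to WT level at matched hemoglobin share (log axis) for each gene under 50% (grey), at 60 to 75% (magenta) and at 75% and over (green), with Mantel-Haenszel intervals for counting error. *Plek2* at 75% and over had too few UMIs to show. At 60 to 75% *Tcp11l2*, *Xpo7*, *Tmcc2* and *Slfn14* lie at 1.89 to 5.51, and *Hemgn* and *Gch1* lie to the left of 1 and furthest left at 75% and over.

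Depth and RNA content also differed between the libraries, and not only at 60 to 75%. Non-hemoglobin UMIs averaged 10677 per Cko cell and 8507 per WT cell at 10 to 30%, and 1450 and 1223 at 75 to 80%. A Cko cell of 60 to 70% hemoglobin held a mean of 8520 UMIs, 2955 of them non-hemoglobin, and a WT cell 5856 and 2008. Ribosomal protein messages made up 12.4% of non-hemoglobin UMIs in Cko and 8.06% in WT in this range, and mitochondrial messages 1.20% and 1.80%. Their part in the ratios was not tested. Counted per cell instead, *Tmcc2* was at 2.36 UMIs in Cko and 0.763 in WT at 60 to 70%, and *Hemgn* at 7.66 and 9.39. *Gch1*, whose level was lower in Cko in this range, was higher per cell, at 4.62 in Cko and 4.08 in WT. It was also higher per Cko cell at 50 to 60% (3.77 and 2.98), and lower at 70 to 75% (2.35 and 4.67).

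A joint clustering of both libraries that left out the 10 genes and the hemoglobin genes divided most of these cells into clusters 4 and 7. Cluster 4, with *Hist3h2ba* and *Tmod1* among its leading genes, held 92.7% of WT cells at 60 to 70% and 86.7% at 70 to 75%. Cluster 7, led by *Bpgm*, *Rsad2* and *Fam213a*, held 8.87% of WT cells at 70 to 75%, 74.8% at 75 to 80% and 98.8% at 80 to 85%. In Cko, cluster 7 already held 13.7% of the cells at 60 to 70%, 69.2% at 70 to 75% and 94.6% at 75 to 80%. Of all cells at 60 to 75%, 28 of 99 in Cko (28.3%, 19.7 to 38.2) and 25 of 839 in WT (2.98%, 1.94 to 4.37) were in cluster 7. The leading genes of a cluster may themselves differ between the libraries, and the shares are a description of these 2 mice.

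**Figure D5:**
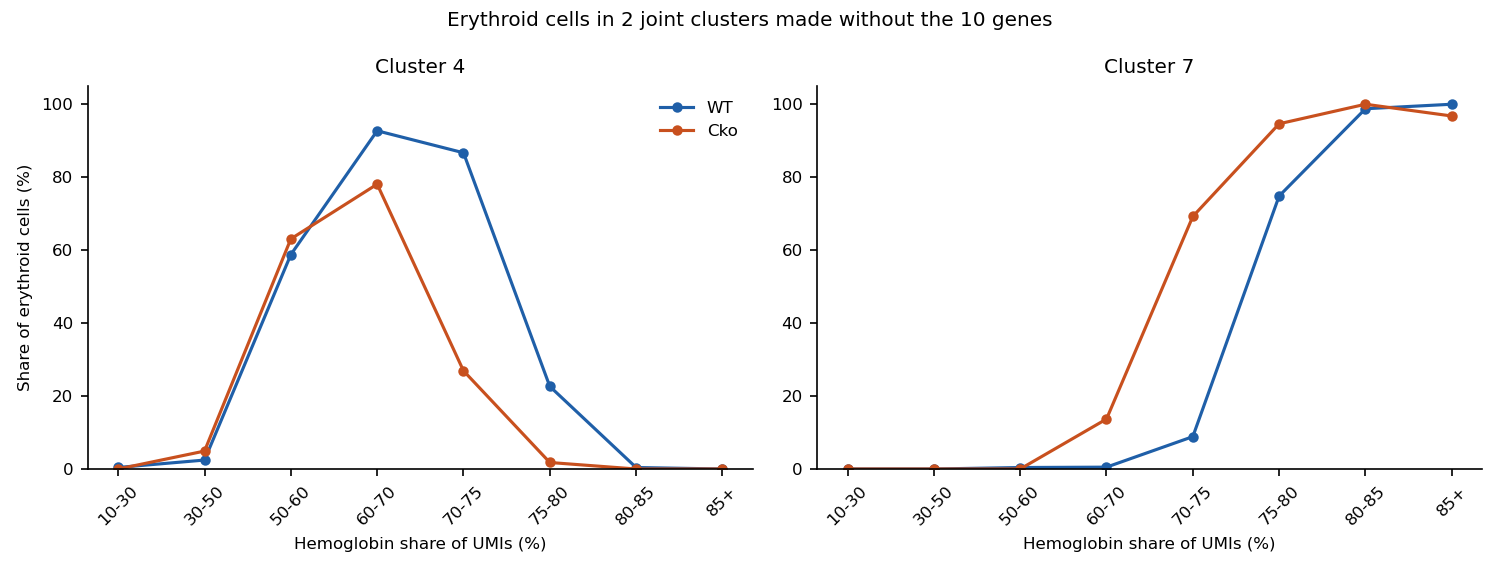
Share of erythroid cells, in percent, in joint clusters 4 (left) and 7 (right) by range of hemoglobin share from 10% in WT (blue) and Cko (orange). At 70 to 75% cluster 7 holds 8.87% of WT and 69.2% of Cko cells.

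Within cluster 4, *Tcp11l2* was the only late gene with a ratio above 1. In cluster 4 cells of 60 to 75% hemoglobin, *Tmcc2* was at 425 in WT and 323 in Cko, a ratio of 0.759 (0.573 to 0.988), *Bnip3l* at 0.789 (0.676 to 0.916) and *Xpo7* at 0.555 (0.298 to 0.954). In cluster 7 cells of the same range *Tmcc2* was at 2621 in WT and 3994 in Cko, a ratio of 1.52 (1.18 to 1.98), *Bnip3l* at 1.30 (1.05 to 1.63) and *Xpo7* at 1.17 (0.788 to 1.77). *Tcp11l2* was higher in Cko in both clusters. Its ratio was 2.38 (1.39 to 3.92) in cluster 4 and 2.43 (1.42 to 4.38) in cluster 7. *Hemgn* was lower in Cko in both clusters, at 0.629 (0.576 to 0.685) and 0.311 (0.205 to 0.465), and so was *Gch1*, at 0.726 (0.644 to 0.815) and 0.615 (0.430 to 0.881). Only 25 WT and 28 Cko cells stand behind the values of cluster 7.

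Outside the erythroid cells, *Bnip3l* was the most abundant of the 10 in every cell type. In cells of other types under 1% hemoglobin, *Tmcc2*, *Slfn14*, *Fam46c*, *Plek2* and *Hemgn* were at 0 to 17.4 in WT in every cell type with over 100 cells and in the few T/NK-like, macrophage-like and stromal-like cells, against 103 to 2082 in WT erythroid cells of 10% hemoglobin and over. *Bnip3l* was at 275 (259 to 291) in WT and 304 (292 to 316) in Cko neutrophil-like cells, which is above its level of 142 in WT erythroid cells under 0.3% hemoglobin. *Tcp11l2* was at 65.4 (57.9 to 73.7) in WT and 106 (99.6 to 114) in Cko neutrophil-like cells, and at 11.6 and 15.8 in B cell-like cells. *Gch1* was at 48.1 (38.9 to 58.8) in WT and 37.5 (31.6 to 44.2) in Cko monocyte-like cells, and at 9.32 and 6.58 in B cell-like cells.

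Free RNA was checked against the hemoglobin UMIs. Cells outside the erythroid gate held a median of 0.299% hemoglobin in WT and 0.0819% in Cko. At the ratio of each gene to hemoglobin in erythroid cells of 10% and over, the hemoglobin in WT neutrophil-like cells would bring along far fewer *Bnip3l* and *Tcp11l2* UMIs than were counted, which were 94.1 and 185 times as many. *Tmcc2*, *Slfn14*, *Fam46c*, *Plek2* and *Hemgn* were at 1.53 to 2.15 times that number in the same cells. Worked out in the same way for Cko neutrophil-like cells, *Bnip3l* and *Tcp11l2* were at 345 and 579 times the number due. *Tmcc2*, *Slfn14*, *Fam46c*, *Plek2* and *Hemgn* were there at 0.839 to 7.09 times. The number due assumes that free RNA has the make-up of erythroid cells of 10% and over. The part of free RNA in these levels was not tested. Cko erythroid cells under 0.3% hemoglobin held a median of 12 UMIs of the leukocyte genes against 4 in WT. At 60 to 75% this median was 1 in WT and 1 to 1.5 in Cko. The part of other cells in the *Tcp11l2* values was not tested.

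Other genes of the same processes were read from lists of pathway genes. Between 50 to 70% and 75% and over, the 10 genes separated as above: 7 were over 2-fold higher in WT, where 9.62% of 2506 genes were, and *Hemgn* and *Plek2* over 2-fold lower, where 40.7% were. In Cko 7 were higher, with 18.2% of 996 genes, and 3 lower, with 31.2%. Of the ubiquitin pathway list 7 of 11 genes tested were higher in WT and 6 of 9 in Cko, with none lower, and the median was 4.34-fold and 3.92-fold beside 0.610 and 0.763 over all genes. Of the autophagy and mitophagy list, to which *Bnip3l* is a partner, 3 of 4 were higher in WT and 2 of 3 in Cko. No gene of the list of nuclear condensation, cell cycle exit and cytoskeleton was higher, and 5 of 9 were lower in WT and 2 of 5 in Cko. No erythroid regulator was higher either, with 5 of 8 lower in WT and 1 of 6 in Cko.

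Over the longer rise, from under 1% to 10% hemoglobin and over, all 11 ubiquitin pathway genes tested were over 2-fold higher in WT and in Cko, beside the 17.8% and 21.7% of all genes given above, while 25.6% of all genes in WT and 25.8% in Cko were over 2-fold lower. Of the autophagy and mitophagy list 5 of 6 were higher and 1 lower in WT, and 3 of 5 were higher in Cko. Of the list of nuclear condensation, cell cycle exit and cytoskeleton 6 of 11 were higher in WT and 5 of 9 in Cko, with none lower. Of the regulators 5 of 11 were higher and 3 lower in WT, and 6 of 9 higher and none lower in Cko. The steepest genes of the lists in WT were *Tmod1*, which caps actin filaments in the red cell membrane skeleton, at 153-fold (89.0 to 287), *E2f2*, a cell cycle transcription factor, at 19.6-fold (16.8 to 23.1), and *Dmtn*, which bundles actin, at 15.6-fold (13.3 to 18.4). The lowest 3 were *Spr* at 0.121 (0.0924 to 0.156), *Stat5a* at 0.127 (0.0858 to 0.182) and *Qdpr* at 0.165 (0.133 to 0.202). *Spr* and *Qdpr* encode sepiapterin reductase and dihydropteridine reductase, which make and recycle tetrahydrobiopterin. *Gch1*, the entry enzyme of that pathway, went up 96.7-fold (78.0 to 121) in the same WT cells. The same held in Cko, with *Spr* at 0.0797 (0.0359 to 0.155), *Qdpr* at 0.144 (0.0875 to 0.225) and *Gch1* at 104-fold (63.5 to 182). Of the paralogs and partners of the 10 genes, 1 of 7 tested was over 2-fold higher and 4 lower in WT, and none of 5 was higher and 4 lower in Cko.

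The genes whose levels over the 8 WT ranges were most like the mean of the 10 were *Mpc2*, *Mxd1*, *Rsad2*, *Cdr2* and *1810058I24Rik*, with Pearson's r of 0.998 to 0.999 of log2 levels. *Mpc2* encodes a subunit of the mitochondrial pyruvate carrier and *Mxd1* a repressor of the MYC network. In Cko, over 6 ranges, they were *Nfe2*, *1810058I24Rik*, *Mad2l1bp*, *Ctsf* and *Ppp1r15a*, with r of 0.998 to 0.999. *Nfe2* encodes a subunit of an erythroid transcription factor, and *1810058I24Rik* was the gene named in both libraries. Among the 10, *Fam46c* was most like the mean of the other 9 in both libraries (r of 0.997 in WT and 0.986 in Cko), and *Plek2* least (0.834 and 0.384). The ranges are few and shared between all genes, and the correlations are given as a description.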

How the data were processed

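The deposited files hold UMI counts per gene and cell barcode, whole numbers without normalization, which the authors made with Cell Ranger. Per the submitters' processing notes the build is GRCm38, and the version of Cell Ranger is not given in the sources used here. A row and a column of totals were dropped. The 10 genes, the pathway lists and the ranges were chosen with earlier results of these data known. Named are all 10 genes, the 3 list genes with the highest and the 3 with the lowest rise in WT, and 5 genes per library with the highest correlation (log2 of level plus 10). Promoters are those of the 2 earliest genes and of *Tcp11l2*. *Xpo7*, the other of the 2 latest, had no entry. Genes entered a comparison with at least 100 UMIs. Doublets (Scrublet in scanpy 1.11.5, expected rate 5%) were kept. Clusters were made with Seurat 5.3.0 in R 4.3.3 (2000 variable genes, 20 components, resolution 0.2, 13 clusters) and named "-like" by at least 3 markers. Ratios are Mantel-Haenszel ratios and intervals are exact elsewhere (Poisson, binomial, or conditional on the sum). The calculations, in Python 3.11.15 (scipy 1.17.1, numpy 2.4.6, matplotlib 3.10.9, pandas 2.3.3), were tested on simulated data. Alternatives changed the gate, doublets, gene minimum, denominator, bins, hemoglobin genes, onset threshold, UMI minimum and scaling.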

Additional observations from a re-analysis of the deposited data

Results flagged for a closer look

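*Gch1* changed in opposite directions between the libraries over the last of the 8 ranges. From 50 to 70% to 70% hemoglobin and over, its level went from 1685 to 2136 in WT (0.34 on the log2 scale) and from 1228 to 689 in Cko (-0.83 on the log2 scale). The intervals of both folds left out 1 (1.198 to 1.34 in WT, 0.466 to 0.672 in Cko), for counting error only. The difference between the libraries was not tested, as each genotype had 1 library. Per 1000000 UMIs of all genes, *Gch1* went from 630 to 435 in WT and from 482 to 135 in Cko, so that both were lower at the top. In the finer ranges it was highest at 70 to 75% in WT and at 60 to 70% in Cko.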

How the results depend on the processing

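Under every alternative for the gate, doublets, gene and UMI minimum, denominator of all UMIs and hemoglobin genes, the 10 genes rose over 2-fold. This held in both libraries. Counted per cell, *Bnip3l* did not rise 2-fold (1.18-fold in WT and 1.30-fold in Cko). The genes were chosen for this rise in these cells, so that nothing is read from its return. *Hemgn*, *Plek2* and *Gch1* were the first 3 in 20 of 22 orders, and the exceptions were UMIs per cell in both libraries, where *Bnip3l* came first because it was already at 50% of its highest value in the first range. In 103 of 110 pairs of onsets Cko was earlier. These pairs are the same 10 genes in the same 2 libraries under each alternative, and they are not independent. The median onset of 69.7% in WT and 67.2% in Cko depended on the ruler: 67.3% and 63.3% per 1000000 UMIs of all genes, 76.4% and 72.1% with 10 bins of equal cell number, 45.1% and 44.5% with beta-globin alone, 64.9% and 61.6% at 25% of the highest level, and, chosen after seeing the data, 76.3% and 73.9% with the finer ranges and 66.9% and 59.5% as UMIs per cell. With at least 500 genes per cell it was 65.9% in WT. The 4 genes past 1.5-fold between Cko and WT became 2 at 75% hemoglobin and over, and *Plek2* turned to 0.876 at 60 to 75%, both chosen after seeing the data. No paired analysis was possible because each genotype had 1 library. Depth limits *Plek2* and *Slfn14* most, with 350 and 272 UMIs in all Cko erythroid cells, and the ranges compared held as few as 26 Cko cells, and those of 0.3 to 1% and 1 to 3%, left out, 11 and 15.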
